A study of Mus musculus with 15 samples.

Results

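The wild-type (WT) baseline was described from 4 RNA sequencing libraries of mouse intestinal organoids, out of 15 libraries in the series. The 4 were chosen by their labels alone, as the cultures of Apc flox/flox genotype in ENR media, and came from lines numbered 1, 2, 5 and 6 with 1 library each. Organoids are budding epithelial structures that grow from isolated crypts in a gel, and these were started from the proximal small intestine of mice of a mixed C57B6/129 background. ENR stands for EGF, Noggin and R-spondin, the 3 factors added to the medium. Both Apc alleles were flanked by loxP sites and intact in these cultures. The 4 Apc libraries (Apc delta/delta, same line numbers, EN media without R-spondin) served to follow the order of the lines, and 1 dox-naive WT library (ENR media), a culture never given doxycycline, the drug that induces its Cas9, served as an outside check. The labels give neither the sex nor the age of the mice. They do not say which lines came from separate animals, so the spread between libraries is a spread between cultures. Sex-linked genes, given below, set line 6 apart from lines 1, 2 and 5.

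The small intestinal epithelium renews itself from Lgr5-positive stem cells at the base of the crypts, which depend on Wnt signals, R-spondin and the neighbouring Paneth cells. Their daughters divide rapidly and then become absorptive enterocytes, under Notch signals, or secretory cells, which are the mucus-producing goblet cells, the hormone-producing enteroendocrine cells, the chemosensory tuft cells and the Paneth cells with their antimicrobial granules. Organoids in ENR hold all these epithelial types but no stroma, which in the tissue supplies R-spondin and BMP inhibitors.

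Total counts per library ran from 28902729 to 35090893, and counts of mitochondrially encoded genes made up 3.83 to 5.42% of them. Values of the 4 libraries are given in the order of lines 1, 2, 5 and 6 throughout, as FPKM (fragments per kilobase of transcript, scaled to the fragments mapped in the library) for levels and as CPM (counts scaled to the library's total after TMM normalization) for spread. A gene was taken as expressed at an FPKM of 1 or more in all 4 libraries and as not detectable at 3 counts or fewer in all 4, a limit that corresponds to 0.0855 to 0.104 CPM. FPKM was not dependable for every gene. Of 10790 genes whose FPKM was compared with counts divided by exon length, 82.4% lay within 2-fold of the median ratio. Qars, a transfer RNA synthetase, was listed at 2.36, 156, 148 and 3.63 FPKM although its CPM was 243, 239, 236 and 235, and 192 genes, 186 of them in 1 block of chromosome 8, had counts but no FPKM value here.

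Of 43629 genes in the count table, 10954 had an FPKM of 1 or more in all 4 libraries, 10263 of them protein-coding and 110 lincRNA genes. This number rests on FPKM alone and includes 107 genes with 0 counts in all 4 libraries, which are not detectable by counts. At the lower FPKM mark of 0.1, 14159 genes qualified. Counts were 0 in all 4 libraries for 20405 genes. The distribution was steep, with 6707 genes at a mean FPKM of 10 or more, 836 at 100 or more and 72 at 1000 or more. The 100 genes with the highest mean FPKM made up 36.0% ± 0.451 (SD, n = 4) of all FPKM, and the 10 highest made up 14.2% ± 1.01, or 10.7% ± 0.824 without Gm26377, an entry with FPKM but no counts. By counts, which weigh long transcripts more, the 100 highest genes held 21.5% ± 0.866 of the total.

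The most abundant messages with a usable value fell into a few kinds. Mitochondrially encoded subunits of the respiratory chain led, with mt-Nd1 at 10140.1, 11960, 12347 and 13358 FPKM and mt-Cytb at 5386, 5635, 6269 and 7722. The machinery of translation followed, with the elongation factor Eef1a1 at 5911, 6513, 5673 and 6464 and the ribosomal protein genes Rpl13a, Rplp1, Rps12, Rps15a, Rps27, Rpl32 and Rpl18 among the 25 highest. The 83 ribosomal protein genes with an FPKM together held 13.6, 14.2, 12.0 and 14.4% of all FPKM, lowest in line 5. The metallothioneins Mt1 (7474, 4472, 5564 and 5564) and Mt2 (6933, 4135, 4578 and 4653), which bind zinc and copper, were both highest in line 1. Genes of particular cell types reached the same range. The enterocyte gene Fabp1, which encodes a fatty acid binding protein, had 2734, 2312, 4729.5 and 1361 FPKM, and the Paneth cell defensin gene Defa24 had 4087, 6013, 4959 and 4539. Fabp1 was highest in line 5 and Defa24 in line 2. Defa24 belongs to a family of near-identical copies, so its reads could not be assigned to 1 gene with certainty. Ferritin heavy chain (Fth1) had 3179, 2237, 3061 and 2040.0 and lactate dehydrogenase A (Ldha) 2021, 1692, 2148 and 1655.

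Some entries at the top of the FPKM order did not match their counts. Gm26377, a microRNA gene of GRCm38 chromosome 9 from 78478528 to 78478635 that lies within Eef1a1 (78478449 to 78489151) on the same strand, was listed highest of all at 24777, 32399, 25506 and 28785 FPKM with 0 counts in every library. In contrast, mt-Co1, a subunit of cytochrome c oxidase, had the highest counts of any gene (567127, 741905, 763424 and 759586) but was listed at 0 FPKM in lines 2, 5 and 6 and at 14956 in line 1. When counts were divided by the length of the exons instead, 15 of the 25 genes were shared, mt-Co1 came first, and Lyz1, Eef2 and Itln1 entered the 25.

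**Figure D1:**
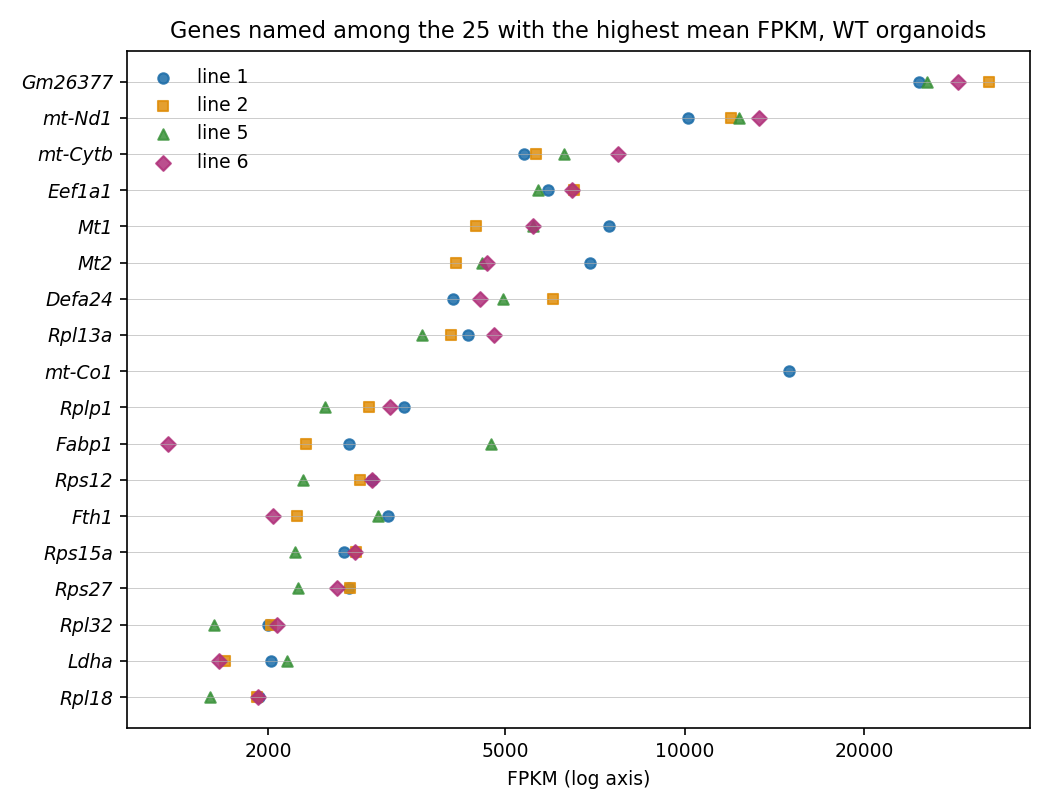
FPKM on a log axis of the genes named in the text that are among the 25 with the highest mean FPKM, 1 point per library and line. Most genes lie within a narrow band over the 4 lines, Fabp1 spreads from 1361 in line 6 to 4729.5 in line 5, and mt-Co1 has a point for line 1 alone because it is listed at 0 in the others.

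The cultures were epithelial. All 12 pan-epithelial genes were expressed, among them the adhesion molecule Epcam at 360.4, 355, 340.2 and 356 FPKM, the simple keratin Krt19 at 813, 708, 610.4 and 575, and the intestinal transcription factors Cdx2 (78.3, 91.0, 80.0 and 78.0) and Hnf4a (257, 243, 229 and 268). Epcam had the smallest spread of the 1000 genes with the highest CPM, with an SD of 0.011 on the log2 scale. The 8 housekeeping genes were all expressed and summed to 12005, 12078, 11110.5 and 11715 FPKM.

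Genes of the enterocyte, the absorptive cell, were the most abundant of the lineage lists, with 26 of 27 expressed and a summed FPKM of 13387, 11984, 19438 and 10205. Besides Fabp1 they included the apolipoprotein gene Apoa4 (952, 946, 1593 and 330.1), sucrase-isomaltase (Sis, 693, 763, 1051 and 759), which digests sucrose, the glucose transporter gene Slc5a1 (306, 413, 617 and 280.2) and alkaline phosphatase (Alpi, 520.3, 286, 436 and 242). The remaining member, the ectonucleotidase gene Nt5e, stayed under 1 (0.579, 0.547, 0.466 and 0.236). Krt20, a keratin of mature villus cells, was at 32.0, 71.4, 96.8 and 22.2 and was expressed in each culture. In bulk RNA, fewer cells of a type and less RNA per cell cannot be told apart, which holds for every lineage below.

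All 16 stem cell genes and all 11 proliferation genes were expressed. Olfm4, a secreted protein of crypt base cells, was by far the highest of the stem cell list at 472, 820.2, 558 and 1146. Lgr5, the R-spondin receptor that marks these cells, had 19.7, 37.5, 29.2 and 38.0, the stem cell transcription factor Ascl2 had 13.4, 13.8, 9.71 and 18.5, and Axin2, a feedback target of Wnt signalling, had 31.2, 33.8, 24.7 and 51.6. Line 6 was highest in each of these 4 genes. Of the proliferation genes, Pcna (123, 121, 124 and 130.2), a clamp of the replication fork, and Cdk1 (112, 93.9, 91.98 and 108), the kinase of mitotic entry, were the highest by mean, and Mki67 had 26.4, 31.1, 26.0 and 38.6.

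The secretory lineages differed in level. Of 20 Paneth cell genes, 17 were expressed, with a summed FPKM of 7011, 10438, 7809 and 7739.5. Lysozyme (Lyz1) had 1171, 2343, 1309 and 1456 and the lectin gene Itln1 had 1010.2, 1057, 885 and 968. Wnt3, a Wnt ligand that Paneth cells make, was expressed at 2.63, 2.39, 1.85 and 2.51. Both Lyz2, the lysozyme of myeloid cells, at 0.591, 0.606, 0.440 and 0.509, and Mptx1, at 2.07, 0.590, 0.549 and 0.819, were low or mixed, and Defa20 had 3 counts or fewer. Goblet cell genes were expressed in 13 of 14 cases, led by Spink4 (1174, 1194, 914 and 997) and the trefoil factor gene Tff3 (974, 697, 637 and 690.3). Transcripts of Muc2, the main secreted mucin, were at 14.8, 24.9, 23.3 and 20.4. Retnlb, a goblet cell gene that is induced by bacteria in the tissue, was not detectable.

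Enteroendocrine genes were expressed in 13 of 21 cases and summed to 204, 296, 290.1 and 258 FPKM. Chgb (61.9, 64.3, 45.2 and 51.0) and Chga (26.7, 26.7, 19.6 and 16.1) encode granule proteins shared by these cells. Among the hormones, Gip (30.5, 84.6, 91.5 and 67.5), Ghrl (26.7, 16.6, 22.5 and 16.9), Cck (8.97, 21.4, 26.6 and 24.7), Sst (6.13, 9.38, 22.4 and 20.8) and Sct (8.84, 12.0, 16.0 and 13.7) were expressed in all 4 lines. Line 1 was lowest for Gip, Cck, Sst and Sct and highest for Ghrl. Pyy, a hormone of the distal gut, was at 0, 0, 0.327 and 0.367, and the colonic hormone gene Insl5 and gastrin (Gast) were not detectable. Neurog3, the transcription factor that starts this lineage, had 11.3, 6.32, 4.65 and 8.92, highest in line 1.

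Tuft cell genes were present at the lower end, with 9 of 15 expressed and a summed FPKM of 23.3, 42.9, 31.8 and 36.2. The transcription factor Pou2f3, which tuft cells need, had 1.24, 2.27, 1.54 and 2.37, and the ion channel gene Trpm5 had 1.78, 1.75, 2.70 and 2.12. Dclk1 was near the mark of expression (0.746, 0.929, 1.28 and 1.17), and Il25, the cytokine by which tuft cells alert immune cells, was not detectable. Alox5ap, of leukotriene synthesis, carried much of the summed FPKM of lines 2 and 6, with 4.04, 25.1, 6.34 and 17.3, but its counts were 65, 40, 45 and 24, so its FPKM did not follow its counts. By counts the whole list summed to 1489, 1425, 1849 and 1769, highest in line 5. Of 7 genes that mark the M cell, which samples antigen over lymphoid follicles, 4 were expressed, but Gp2 and Sox8, its most specific markers on the list, were not detectable in any library.

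Of the lists of gut regions, that of the proximal small intestine had the most members expressed. Of 8 proximal genes, 7 were expressed, with the transcription factor genes Gata4 (98.8, 84.4, 87.6 and 88.6), Onecut2 (14.8, 14.1, 12.7 and 13.8) and Pdx1 (10.3, 3.75, 5.02 and 4.27) and the calcium binding protein gene S100g (423, 134, 211 and 234). S100g was highest in line 1, as was Pdx1. Trpv6, a calcium channel gene, was under 0.1. Of 6 ileal genes, Slc51a (25.7, 17.3, 25.3 and 14.7) and Slc51b (14.7, 16.9, 28.4 and 10.3), which export bile acids from the cell, were expressed in all 4 libraries. The transcription factor gene Osr2 was expressed in lines 2, 5 and 6 but not in line 1 (0.0157, 5.59, 10.2 and 15.9), so 3 of the 6 passed without line 1. The ileal bile acid transporter Slc10a2 (0.300, 0.231, 0.337 and 0.247) and bile acid binding protein Fabp6 (0.237, 0, 0.173 and 0.219) were far lower, and the hormone gene Fgf15 was not detectable. Of 8 colon genes, 2 passed, Aqp4 (17.4, 24.0, 17.6 and 22.2) among them, and Car1, Car4, Hoxa13 and Hoxb13 were not detectable. Of 13 genes of stomach and Brunner glands, Gkn3 (8.77, 5.82, 7.35 and 6.66) and Atp4a (2.30, 1.23, 1.49 and 1.56) passed, and 6, Sox2 and Muc5ac among them, were not detectable. Pancreatic acinar genes were not detectable in 7 of 9 cases and only Cela1 was expressed (7.20, 4.19, 5.02 and 4.92).

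Markers of other cell types were at or near 0. None of 6 squamous genes, 7 fetal spheroid genes, 7 neuron and glia genes and 5 erythrocyte genes was expressed, although the fetal spheroid genes Anxa1 (1.79, 5.09, 2.83 and 0.967 FPKM on 57, 96, 22 and 51 counts), Ly6a (2.26, 3.19, 0.931 and 1.18) and Clu (1.72, 2.22, 0.610 and 2.68) lay around the mark, and 2 of the 7 passed without line 5 and 1 without line 6. Tubb3, of the neuron list, had counts but no FPKM value here. Of 15 fibroblast and smooth muscle genes only the intermediate filament gene Vim passed (3.19, 4.81, 2.17 and 2.83), while the collagen genes Col1a2 and Col3a1 and the matrix genes Dcn and Lum were not detectable. Among 8 endothelial genes Lyve1 was expressed (4.34, 5.84, 5.46 and 2.86), with Cdh5, Kdr and Flt1 not detectable, and among 15 immune genes Itgam (1.11, 1.65, 1.89 and 1.05), with Cd4 and Cd8a not detectable. The pan-leukocyte gene Ptprc was at 0.198, 0.0295, 0 and 0.0246. Summed over the whole list, FPKM was 3.66, 5.49, 2.65 and 3.17 for stroma, 5.44, 6.48, 6.19 and 3.46 for endothelium and 2.18, 2.89, 3.70 and 2.31 for immune cells.

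**Figure D2:**
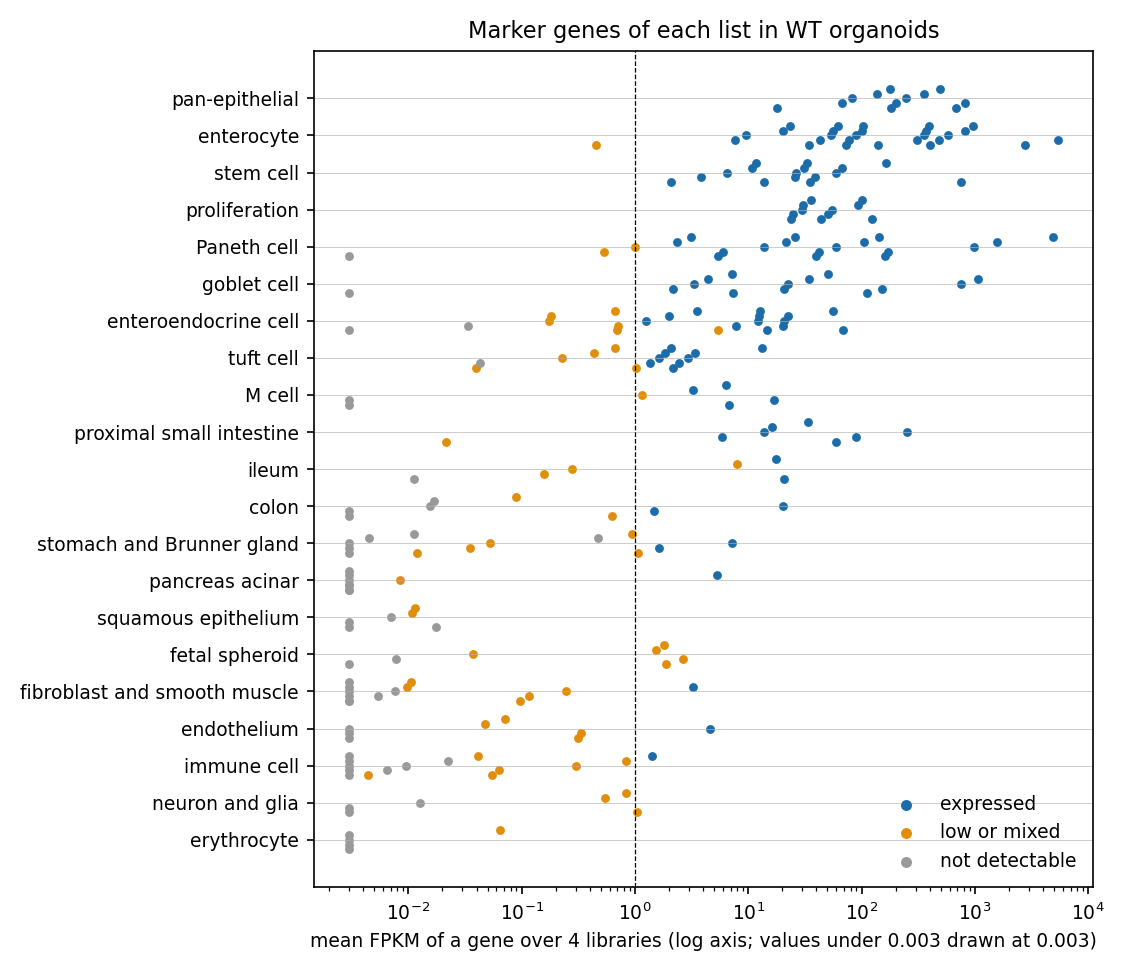
Mean FPKM over the 4 libraries on a log axis for each gene of 21 marker lists, coloured by whether the gene was expressed, low or mixed, or not detectable, with a dashed line at an FPKM of 1. Most genes of the pan-epithelial, enterocyte, stem cell, proliferation, Paneth and goblet cell lists lie to the right of the line. Those of enteroendocrine, tuft and M cells lie on both sides, as do those of ileum and colon. The lists of stroma, endothelium, immune, squamous and blood cells lie to its left except for single genes.

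Signals made within the epithelium could be read from the same libraries. Of 20 genes of the Wnt and R-spondin pathway 11 were expressed, among them Ctnnb1, which encodes beta-catenin (298, 298, 298 and 291), the receptor genes Lgr4 (29.4, 29.9, 26.9 and 37.0) and Fzd5 (21.8, 19.0, 18.9 and 22.5), and Apc itself (11.6, 13.3, 13.2 and 22.3), highest in line 6. Rspo1, Rspo2, Rspo3 and the receptor gene Lgr6 were not detectable at this depth. Wnt3 was the only ligand of 5 listed to be expressed. All but 1 of 11 Notch genes were expressed, with the target gene Hes1 at 51.9, 72.7, 62.1 and 64.4 and the ligand gene Dll1 at 15.8, 15.6, 15.9 and 21.2, while Hes5 was mixed (1.83, 0.399, 0.307 and 1.48). Of 11 EGF pathway genes, 8 were expressed. The ligand gene Areg (48.6, 65.1, 59.0 and 24.2) was higher than Egf itself (0.122, 0.296, 0.198 and 0.226), and the receptor gene Erbb3 (31.9, 38.5, 40.1 and 38.2) was higher than Egfr (5.62, 5.10, 4.78 and 7.12). Of 11 BMP genes, 7 were expressed, with the receptor gene Bmpr1a at 28.6, 28.5, 32.4 and 32.9 and the target genes Id1 (31.0, 25.8, 17.6 and 21.1) and Id2 (48.3, 46.4, 38.3 and 28.9), and the inhibitor genes Nog and Grem1 were not detectable.

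Genes of mucosal defence were expressed in culture. Of 14 mucosal defence genes, 10 were expressed, with the regenerating protein gene Reg1 at 1732, 507, 732 and 272, Lypd8 at 757, 528, 619.8 and 558 and the immunoglobulin receptor gene Pigr at 435, 363, 363 and 335. Reg1 differed most of these 3 and was highest in line 1, while Reg3a (34.9, 91.4, 166 and 53.8) was lowest there. Lcn2, induced by infection, was under 1 (0.606, 0.209, 0.103 and 0.474), and Saa1 was not detectable. Of 15 genes of antigen presentation and interferon response, 5 were expressed, among them B2m (418, 418, 541 and 310.3), H2-K1, H2-D1 and Irf7, whereas the class II genes H2-Ab1 (0.173, 0.495, 3.17 and 0.907) and Cd74 (0.200, 0.131, 0.893 and 0.295) were low or mixed.

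To place these levels beside regulatory sequence, the first listed RefSeq promoter (GRCm38.p6, 250 bases before to 50 after the start) was searched on both strands for 4 short motifs. The TATA box, which positions the start of transcription, was written as TATAAA. The box bound by the general factor NF-Y was written as CCAAT. For CDX2, the transcription factor that sets intestinal identity, the letters searched were TTTATNG. For HNF1, a transcription factor of liver and intestine, the letters searched were GTTAAT. The letters CTATAAA count for both TATA and CDX2. Promoters were on hand for 66 of the 100 genes highest by FPKM and for 24 of the 27 enterocyte genes. The CDX2 letters were found in 24.2% of the former and 33.3% of the latter, beside 11.3% of all 27025 promoters and 6.70% of those of expressed genes. TATA boxes were found in 16.7% and 41.7%, beside 14.2% of all promoters and 6.86% of those of expressed genes. The HNF1 letters were found in 9.09% and 12.5%, beside 7.20% and 4.20%. CCAAT boxes were found in 30.3% and 20.8%, beside 37.9% and 39.4%. These shares are a description of letters in a window and say nothing of binding.

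The sequences of the most abundant gene with a RefSeq promoter in each of 5 lineage lists are shown from 120 bases before to 30 after the start, 5′ to 3′, with any of the 4 motifs in capitals, to show part of the window searched for 1 gene of each lineage. Of these, Fcgbp, which encodes a protein of goblet cell mucus, had 202, 131, 148 and 121 FPKM, and the levels of the others are given above. Fabp1 (enterocyte) lies on the plus strand at chr6:71199759-71199908, Olfm4 (stem cell) on the plus strand at chr14:80000182-80000331, Lyz1 (Paneth cell) on the minus strand at chr10:117292839-117292988, Fcgbp (goblet cell) on the plus strand at chr7:28071116-28071265 and Gip (enteroendocrine cell) on the plus strand at chr11:96024425-96024574.
Fabp1: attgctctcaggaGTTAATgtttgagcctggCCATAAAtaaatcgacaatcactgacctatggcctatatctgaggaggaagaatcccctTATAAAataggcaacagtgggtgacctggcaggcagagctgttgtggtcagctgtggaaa
Olfm4: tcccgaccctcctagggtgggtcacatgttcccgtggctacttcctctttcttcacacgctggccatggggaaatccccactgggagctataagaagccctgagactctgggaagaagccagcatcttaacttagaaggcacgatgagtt
Lyz1: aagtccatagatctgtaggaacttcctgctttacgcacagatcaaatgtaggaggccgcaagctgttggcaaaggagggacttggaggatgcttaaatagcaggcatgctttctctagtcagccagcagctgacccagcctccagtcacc
Fcgbp: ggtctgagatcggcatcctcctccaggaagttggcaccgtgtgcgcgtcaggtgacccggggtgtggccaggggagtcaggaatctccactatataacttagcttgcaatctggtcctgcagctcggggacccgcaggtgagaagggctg
Gip: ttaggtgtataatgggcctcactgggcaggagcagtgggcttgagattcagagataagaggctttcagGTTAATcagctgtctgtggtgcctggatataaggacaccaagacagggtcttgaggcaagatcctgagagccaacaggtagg
The Fabp1 stretch shown held a match of each of the CDX2, HNF1 and TATA letters, the Gip stretch held the HNF1 letters, and in the other 3 stretches shown none of the exact letters was found.

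The 4 cultures were much alike in most genes. Among 11508 genes with a mean count of at least 50, the SD of log2(CPM + 0.5) between the 4 libraries had a median of 0.16, with 0.057 and 0.53 at the 5th and 95th percentiles. An SD above 1 was found for 107 genes, which is 0.930% of those ranked, and an SD under 0.1 for 2364. With 1 library per line, this spread has no replicate of its own and was not tested within WT. The 5 steadiest of the 1000 genes highest by CPM were Epcam, Dazap2, Add1, Qars and D17Wsu92e.

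**Figure D3:**
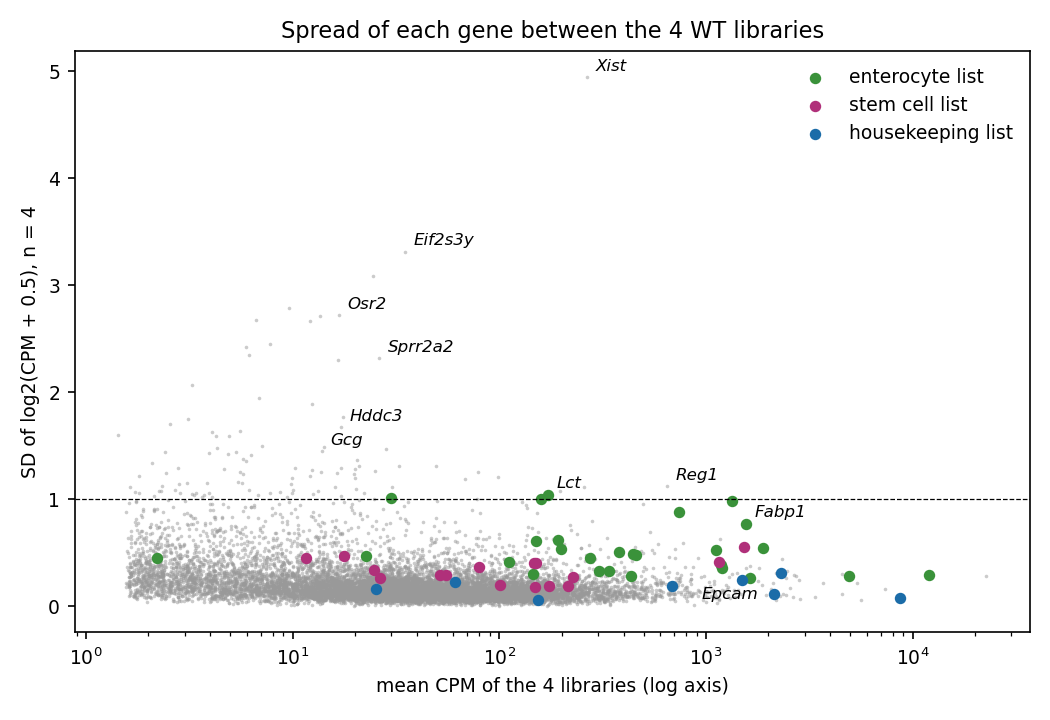
SD of log2(CPM + 0.5) over the 4 libraries against mean CPM on a log axis, 1 point per gene, with enterocyte, stem cell and housekeeping genes in colour and a dashed line at an SD of 1. Most genes lie near the median of 0.16, enterocyte genes reach an SD of about 1, and Xist stands highest at 4.95.

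The order of the lines differed between the lineage lists. Of all genes ranked, lines 1, 2, 5 and 6 were highest for 25.7%, 16.3%, 23.6% and 34.4% and lowest for 21.0%, 21.2%, 31.1% and 26.7%. Line 6 was highest for 15 of 16 stem cell genes, with a median of 0.38 on the log2 scale against the mean of the 4, and line 1 was lowest for 9 and line 5 for 7. Of 11 proliferation genes, line 6 was highest for 8 and line 5 lowest for 7, while line 1 was highest for 3 and lowest for 1, unlike its place among the stem cell genes. Olfm4 showed the widest range of the stem cell genes on the CPM scale, 962, 1687, 1189.9 and 2301.

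Enterocyte genes ran the other way. Line 5 was highest for 21 of 27 and line 6 lowest for 18, with medians of 0.44 and -0.54 on the log2 scale. Apoa4 was 5.09-fold higher in line 5 than in line 6, Lct, which encodes lactase, was at 9.78, 13.9, 45.2 and 11.5 FPKM and high in line 5 alone, and Slc15a1, the peptide transporter gene, was at 4.19, 9.27, 14.2 and 3.17. By contrast Enpep, an aminopeptidase gene, was highest in line 6 (45.1, 56.2, 65.8 and 79.2). Genes of antigen presentation and interferon response also had line 5 highest, for all 7 ranked genes, and line 6 lowest for 5, as in Irf7 (8.49, 9.04, 16.2 and 4.66). Line 5 was also highest for 7 of the 8 tuft cell genes with a mean count of at least 50.

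Line 2 was highest for 12 of 16 ranked Paneth cell genes, with a median of 0.39. Lyz1 and several defensin genes moved together, among them Defa5 (7.62, 26.2, 10.4 and 10.9) and Defa21 (29.2, 66.6, 28.1 and 34.8), as did Reg3g (14.1, 32.5, 20.4 and 18.4). Goblet cell genes had no single leading line, with line 1 highest for 6 of 13. Line 1 held the highest values of Zg16 (68.5, 27.5, 34.9 and 7.44), a lectin of goblet granules, and of Clca1 (7.52, 1.87, 2.62 and 1.20). Line 1 was lowest for 8 of 15 ranked enteroendocrine genes and highest for 5 of 7 proximal genes. For mucosal defence, line 2 was highest for 6 of 11 genes and line 1 for 4. For Wnt, Notch, EGF and BMP genes the medians of the lines stayed within -0.17 to 0.23 on the log2 scale. The housekeeping list was within -0.042 to 0.08. Which share of these differences is the line, the sex of its mouse or the state of a culture at harvest was not tested within WT.

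**Figure D4:**
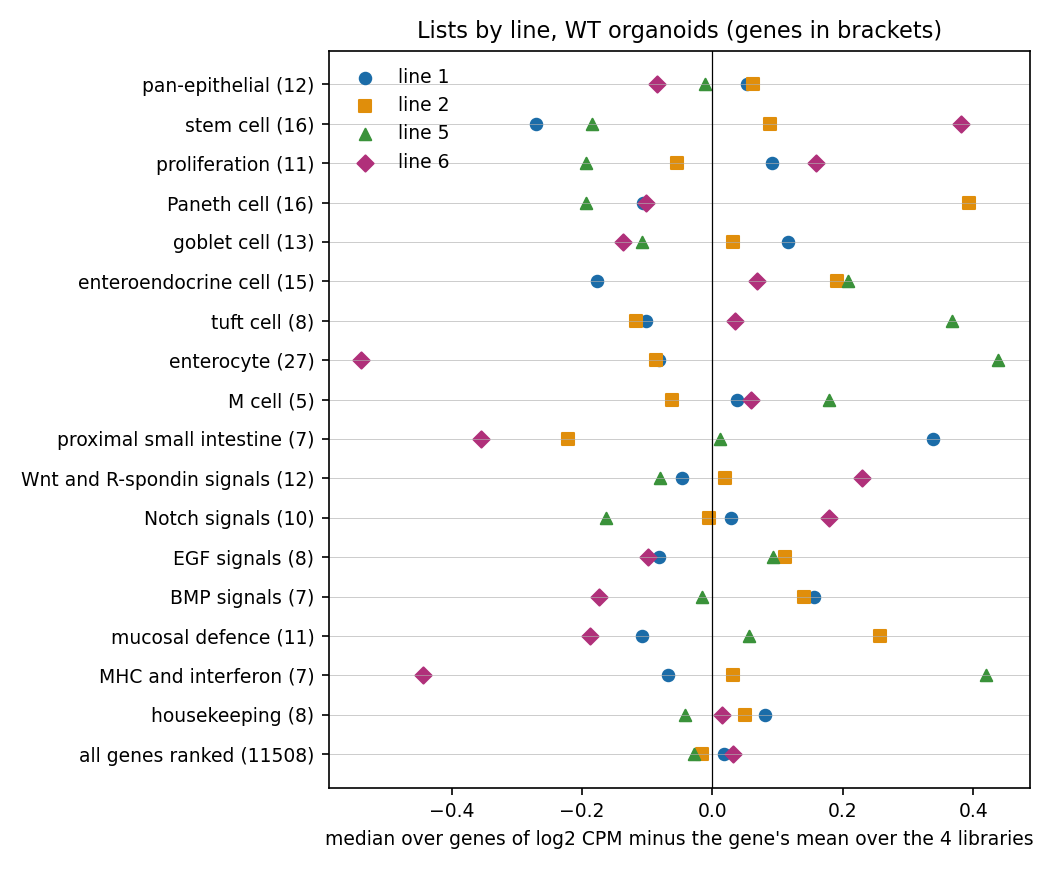
Median over the genes of a list of log2 CPM minus the mean of the gene over the 4 WT libraries, 1 symbol per line, with the number of genes ranked in brackets. Line 6 lies highest for stem cell genes and lowest for enterocyte genes, line 5 the reverse for enterocyte genes, line 2 highest for Paneth cell genes, and the lines nearly coincide over all 11508 genes.

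The Apc libraries of the same lines, which were not used for this ranking, gave another order for several lists. There line 6 was highest for 4 of 16 stem cell genes, against 21.4% of all genes ranked there, and line 5 for 8. Line 6 was lowest for all 11 proliferation genes, against 36.0%. Of the 17 enterocyte genes with a mean count of at least 50 in Apc, line 5 was highest for 4. Line 2 was highest in Apc for 8 of 14 Paneth cell genes, against 21.0% of all genes ranked, and line 1 lowest for 12, against 25.7%. Line 2 was also highest there for 9 of 9 goblet cell and 5 of 7 enteroendocrine genes, although in WT it was highest for 1 of 13 goblet cell and 6 of 15 enteroendocrine genes. Interferon and antigen presentation genes had line 5 highest for 4 of 5, against 24.1%.

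The same question was put to the most variable genes singly. Of the 100 genes with the largest SD, 60 had a mean count of at least 50 in the Apc libraries. The line that was highest in WT was also highest in Apc for 24 of these (40.0%), beside 23.7% over all genes ranked, and the lowest line was shared for 31 (51.7%), beside 22.7%. When X- and Y-linked genes were left out, the shares were 37.5% and 44.6%.

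The widest spread of all was in Xist, the RNA that coats the inactive X chromosome of female cells, and in genes of the Y chromosome. Xist had 11, 31, 18 and 37799 counts, high in line 6 alone, and 12, 7, 13 and 90999 in the Apc libraries, again in line 6 alone. Eif2s3y had 251, 1100, 2688 and 0 counts and was thus at 0 in line 6, but it was also lower in line 1 than in lines 2 and 5. In the Apc libraries line 1 did not stand apart, with 2997, 3007, 3474 and 0. The other Y-linked genes, Ddx3y (170, 772, 1871 and 0), Kdm5d (97, 411, 1054 and 0) and Uty (77, 361, 961 and 0), had the same order in WT. The dox-naive library had 5855 counts of Xist and 0 of these 4 genes. Among the numbered lines, line 6 alone had high Xist without Y-linked counts, the pattern of female cells. Its cells therefore came from another mouse than those of lines 1, 2 and 5, which had Y-linked counts. Differences of line 6 from these lines cannot be told apart from a difference of sex.

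A group of 9 genes was at least 4-fold lower in line 1 than in each other line. These were Gcg, Grb10, Osr2, Trim44, Tut4, Fmnl2, Noxa1, Vopp1 and Rassf4. Osr2, a zinc finger transcription factor, had 1, 347, 646 and 1149 counts and Tut4, which adds uridines to RNA, had 24, 584, 358 and 585. Gcg, the proglucagon gene of L cells, had 66, 716, 427 and 497. In Apc, Osr2 had 25.01, 26.5, 93.6 and 49.9 CPM, with line 1 close to line 2, and Tut4 had 75.7, 81.8, 76.0 and 82.5, with little between the lines. By CPM, line 1 was the lowest in Apc too for each of the 8 genes of this group with 50 counts or more in an Apc library, but by 4-fold from each other line for none. Over all genes ranked, the lowest line was shared for 22.7%. No gene was 4-fold higher in line 1 than in each other line.

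Other genes were set apart in another line. In line 2 these were Sprr2a2, Mptx2, Gm14851 and the pseudogenes Gm11814 and Gm11942, all higher there by counts. Gm14851, a defensin gene that RefSeq names Defa38, had 63.9, 304, 62.9 and 60.3 FPKM. Sprr2a2, a cornified envelope protein gene of a family with similar copies, had 126, 2679, 223 and 65 counts but 1.42, 2.68, 2.81 and 0.687 FPKM, by which line 5 was highest, so the excess in line 2 rests on the counts alone. Mptx2, a pentraxin gene of Paneth cells, had 102, 425, 32 and 29. Line 5 was set apart by the thiamine transporter gene Slc19a3 (34, 32, 218 and 54) and the pseudogene Gm29216. Line 6 was higher for Xist, Ranbp3l (2, 4, 6 and 189) and Gm12033 (9, 2, 4 and 929, with at most 0.194 FPKM), and lower for the 4 Y-linked genes, the interferon-stimulated gene Oasl1 (1395, 1723, 2406 and 361) and Cyp2d34 (672, 795, 774 and 148). Oasl2 (31, 167, 280 and 20) and Bst1 (111, 788, 989 and 27), a cell surface ADP-ribosyl cyclase gene, were low in both line 1 and line 6. Nrn1, a neuritin gene, ran from 0 in line 1 to 650 counts in line 6.

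Some genes, chosen after their values were seen, had a like pattern over the lines in both genotypes, without passing the test of the lines given below. Hddc3, a hydrolase gene, had 1069, 837, 123 and 112 counts in WT and 568, 580, 141 and 155 in Apc, so lines 1 and 2 were high and lines 5 and 6 low in both. The peptide transporter gene Slc15a2 had 10, 303, 62 and 522 and 67, 500, 85 and 1360, high in lines 2 and 6. Rassf4 had 116, 611, 678 and 1189 and 194, 503, 572 and 1142. The glucuronosyltransferase gene Ugt1a8, which shares exons with its neighbours in the Ugt1a cluster, had 523, 216, 3 and 7 and 56, 17, 3 and 1. Counts of the remaining genes among the 25 with the largest SD in WT were 0, 32, 160 and 206 for Tdrd1, 24, 211, 368 and 48 for Ccdc88b, 4, 178, 118 and 211 for Grb10, 50, 511, 644 and 1009 for Trim44 and 167, 229, 2 and 3 for Gm28438.

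**Figure D5:**
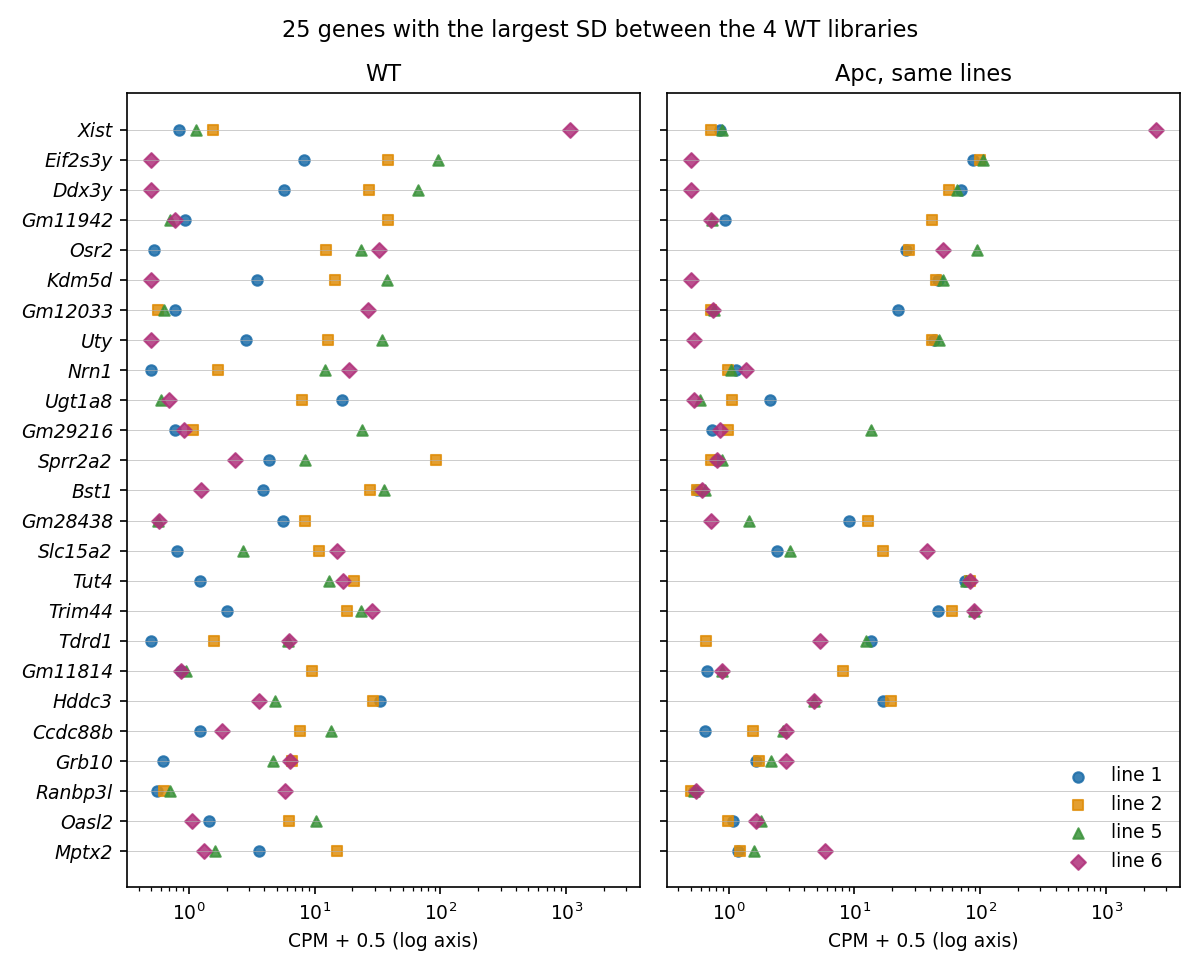
CPM + 0.5 on a log axis of the 25 genes with the largest SD between the 4 WT libraries, in WT (left) and in the Apc libraries of the same lines (right), 1 symbol per line. In both panels Xist is high in line 6, Hddc3 in lines 1 and 2 and Slc15a2 in lines 2 and 6, while Osr2 and Tut4 stand far below the other lines in line 1 in the left panel only.

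Whether lines differed consistently over both genotypes was tested with edgeR's quasi-likelihood F-test of the line term, over the 8 WT and Apc libraries with genotype in the model. An unadjusted p under 0.05 was found for 863 of 18218 genes tested, about as many as chance alone gives. Of the 18218, 4 (0.0220%) passed both an adjusted p of 0.05 (Benjamini-Hochberg) and a range of line effects above 1 on the log2 scale. The 4 were Gm11942 (edgeR adjusted p = 6e-05), Xist (edgeR adjusted p = 0.00077), Gm29216 (edgeR adjusted p = 0.00077) and Gm11814 (edgeR adjusted p = 0.0087). Xist was thus the only list member called. The Y-linked genes Eif2s3y and Ddx3y, at 0 counts in line 6 in both genotypes, were not called (edgeR adjusted p = 0.251 and 0.37). A gene that was not called may therefore still differ between lines. The other 3 genes called are pseudogenes, and whether their reads came from near-identical copies was not tested. Gm11942 had 14, 1099, 6 and 10 counts in WT and 15, 1247, 8 and 8 in Apc, high in line 2 in both, but its FPKM was 1.48, 3.68, 0.723 and 0.760. Gm29216 had 9, 17, 658 and 15 counts and 0.405, 1.25, 0.788 and 0.662 FPKM, and Gm11814 had 12, 263, 13 and 13 counts and 0.376, 0.277, 0.412 and 0.349 FPKM. Hddc3, Slc15a2, Rassf4 and Ugt1a8 were not called, with edgeR adjusted p of 0.114, 0.102, 0.126 and 0.0867. The count of calls depended on the method, and DESeq2's likelihood ratio test called 123 genes.

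The dox-naive library, of another culture in the same medium, was set beside the 4. It fell within their range for 66.7% of the 11508 genes, and was more than 2-fold outside it for 27. For the 100 most variable genes it was within the range for 89. Those genes were chosen for a wide spread over the same 4 libraries, which by itself favours that outcome. Of 27 enterocyte genes, 21 were within the range of the 4, as were 10 of 16 stem cell and 10 of 11 proliferation genes. Tuft cell genes were above it for 6 of 8, with a median of 0.69 on the log2 scale against the mean of the 4, beside 1655 of all 11508 genes above. Below it were 8 of 16 Paneth cell genes, 7 of 10 Notch genes and 8 of 12 Wnt genes, beside 2178 of all 11508 genes. These are values of 1 library and were not tested.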

How the data were processed

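Reads had been mapped by the authors with STAR, run in 2 passes on GRCm38. The deposited files hold raw HTSeq 0.6.0 counts, whole numbers for each Ensembl gene, and FPKM from Cufflinks 2.2.1. The annotation release and the strand setting are not given in the sources used here, which leaves genes that overlap, or that have a near-identical copy, uncertain. Of 43629 genes, 42548 were paired with a symbol, a position and exon lengths from GENCODE M21 (GRCm38), and RefSeq (GRCm38.p6) gave promoters.

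Counts were scaled by TMM over the 4 WT libraries. Genes with a mean count of 50 or more and an FPKM of 0.1 or more in at least 1 library were ranked by the SD of log2(CPM + 0.5). The line term was tested with edgeR 4.0.16 (R 4.3.3), glmQLFit and glmQLFTest, in genes with an FPKM of 0.1 or more in at least 2 of 8 libraries. The script was first run on simulated counts, with 100 genes changed 2-fold and 100 changed 4-fold in 1 line. The adjusted p recovered 70 and 96 of these. It also passed 33 unchanged genes, 25 of them with a range above 1, so some calls of this test can be false. DESeq2 1.42.0 and limma 3.58.1 gave alternatives. Pseudocounts understate the change of low genes. Intervals of detection cover counting error only.

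Genes named are the 25 highest by FPKM, members of 29 lists, the 25 with the largest and 5 with the smallest SD, and those called between lines. Genes set apart by 4-fold in 1 line were chosen after their values were seen, as were Oasl2, Rassf4 and Bst1 as examples. The members and lists were chosen with earlier results of these data known. Some list members are not reported by name here. The other libraries of the series were not used here.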

Additional observations from a re-analysis of the deposited data

Results flagged for a closer look

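In 15 of 174 groups of 4 values examined (library measures, summed lists and FPKM of the genes named), 1 library lay far from the other 3 for the range of the group. Chance flags about 1 group in 20 where groups are picked without regard to their values, and the genes are not independent. Some genes, Gm14851, Ranbp3l and Slc19a3 among them, were named because 1 line stood apart, so this rate does not hold for them. Of the flagged genes, Xist alone was called in edgeR's test of the line term, and no cause was tested.

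Line 6 stood apart for Xist, at 117 FPKM against at most 0.287 in the others, for Apc at 22.3 against 11.6 to 13.3, for the Notch ligand gene Dll1 at 21.2 against 15.6 to 15.9, and for Ranbp3l at 1.88 against at most 0.0434. By CPM the gap for Apc was smaller, at 142, 150, 147 and 191. Line 6 was also lowest for Ctnnb1, with 291 FPKM against 298 in each other line, a gap that is small in size. Line 5 was highest for the summed ileal genes, at 64.4 against 39.97 to 41.3, for Lct at 45.2 against 9.78 to 13.9 and for Slc19a3 at 2.67 against 0.371 to 0.559. It was lowest for the ribosomal protein genes Rpl18 (1596 against 1918 to 1930.2) and Rpl32 (1624 against 1999 to 2069).

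Line 2 was highest for the defensin gene Gm14851, at 304 against 60.3 to 63.9, for Mptx2, at 17.8 against 1.04 to 3.89, and for Cdx2, at 91.0 against 78.0 to 80.0. Line 1 was highest for Ptprc, at 0.198 against at most 0.0295, a level far under the mark of expression, and for mt-Co1, at 14956 against a listed 0 in the others, although by counts line 1 was the lowest.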

How the results depend on the processing

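The number of expressed genes, the number of list members expressed over all lists together and the share of genes whose highest line was shared with Apc stayed within 1.5 times or within counting error under all alternatives run. The orders of the stem cell, enterocyte and Paneth cell lists did so under DESeq2 size factors and under FPKM, both chosen after the data were seen. Of 11 proliferation genes, line 6 was highest for 8 by CPM, 6 under DESeq2 size factors and 7 under FPKM. The shares over all genes ranked were 34.4%, 30.5% and 37.2%. The share held by the 100 most abundant genes was 21.5% by counts, 32.7% without mitochondrially encoded genes and 33.0% without Gm26377, the last chosen after the data were seen. The share of the 10 most abundant was 10.7% without Gm26377, a choice also made later. Of the 25 most abundant genes, 10 were shared with the order by mean CPM and 15 with counts per kilobase of exon, also added later. An SD above 1 was found for 43 genes on log2(FPKM + 1) and for 60 at a mean count of 200 or more. Of the 107 genes, 89 had one on log2(FPKM + 0.1) too. Leaving out 1 library gave 96 to 147.

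The number of genes called between the lines was 25 with the newer form of the quasi-likelihood test, 48 with no filter on low values, 2 at an FPKM of 1 or more, 20 with limma on log2 FPKM at a pseudocount of 1 (22 at 0.1), and 123 with DESeq2's likelihood ratio test, which included the 4. Of the limma calls, 1 was shared with the 4. Leaving out 1 library gave 2 to 17 calls, with 2 without WT line 5, 10 without WT line 6, 7 without Apc line 1 and 17 without Apc line 6. The cause of these differences was not tested. No paired analysis was possible because the line number is itself the term tested, and all other results come from no test. At an FPKM of 0.1 rather than 1, the antigen presentation and interferon list had 10 members rather than 5, fetal spheroid 4 rather than 0, neuron and glia 3 rather than 0, endothelium and immune cells 3 each rather than 1, fibroblast and smooth muscle 2 rather than 1 and stomach 4 rather than 2. At a CPM of 1, fetal spheroid, neuron and glia and immune cells had 2 each. Without line 6, 2 sex-linked genes passed rather than 0. Genes at 3 counts or fewer cannot be told from absent ones at this depth, and no line had a repeat library.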
